A study of Mus musculus with 10 samples.

Results

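Gluconeogenesis, the synthesis of glucose from smaller molecules, was followed in mouse colon organoids through the RNA of 6 genes: Fbp2 and Fbp1, which encode the isoenzymes of fructose-1,6-bisphosphatase, Pck2 and Pck1, which encode mitochondrial and cytosolic phosphoenolpyruvate carboxykinase, G6pc3, a glucose-6-phosphatase catalytic subunit, and Slc37a4, the transporter that carries glucose 6-phosphate into the endoplasmic reticulum. They are 6 of the 56748 genes of the deposited table, taken by gene symbol, and each symbol matched 1 protein-coding entry. The set was chosen by the difference of Fbp2 between the treated and control libraries in earlier results of these data, with the other enzymes of the pathway added around it, so differences of the 6 genes between the groups are given as a description and were not tested.

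Colon organoids are cultures of colon epithelium grown in the dish. Treated cultures received WY-14643, an agonist of the fatty acid receptor PPARα, at 100 µM for 2 days, starting 3 days after passage (5 libraries, replicates 6 to 10). The controls received vehicle over the same days (5 libraries, replicates 1 to 5). The labels name no animal, strain, organoid line or culture day for any library, and none names a loss of PPARα, so the spread between libraries may be technical and a difference is one between WY-14643 and vehicle, not one assigned to the receptor.

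Most steps of gluconeogenesis are glycolytic reactions run backwards, and a few irreversible glycolytic steps are bypassed by dedicated enzymes. Pyruvate carboxylase and phosphoenolpyruvate carboxykinase together return pyruvate to phosphoenolpyruvate, fructose-1,6-bisphosphatase removes a phosphate from fructose 1,6-bisphosphate and thereby opposes phosphofructokinase, and glucose-6-phosphatase releases free glucose. Liver and kidney run the whole route with Fbp1, Pck1 and G6pc. Fbp2 is best known from skeletal muscle, where it serves glycogen synthesis from lactate, and G6pc3 is expressed in most tissues. In liver, PPARα is known as a regulator of fasting metabolism.

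Levels are FPKM, fragments scaled to gene length and library size, as the authors deposited them. Whole reads could be recovered from them, 16136440 to 22209003 per WY-14643 library and 15618244 to 29271304 per vehicle library. Differences are means of log2(FPKM + 1) in WY-14643 minus vehicle libraries unless another scale is named, and this scale understates changes of genes with low levels. The 10 libraries fell into 5 pairs in numerical order, WY-14643 replicate 6 with vehicle replicate 1 and so on up to replicates 10 and 5: deviations from the group means correlated at 0.423 to 0.782 across genes within these pairs and at most at 0.0602 between other libraries of different groups. Subtracting group means pulls the other correlations down where those within pairs are high, so their low ceiling is partly set by this step. The labels state no such pairing, and the pairs are called numbered pairs here. Epithelial identity was clear, with Epcam at 381 to 499 FPKM in WY-14643 and 364 to 579 FPKM in vehicle libraries. Cpt1a, the carnitine palmitoyltransferase gene that PPARα agonists are known to raise, was at 26.6 ± 3.52 FPKM in WY-14643 and 11.5 ± 2.39 FPKM in vehicle libraries (SD, n = 5 each).

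Fbp2 carried the fructose-1,6-bisphosphatase RNA of these organoids and stood higher in every WY-14643 library than in any vehicle library. It was at 128, 136, 137, 113 and 118 FPKM in WY-14643 replicates 6 to 10, and at 72.9, 81.8, 79.0, 57.0 and 88.1 FPKM in vehicle replicates 1 to 5. The lowest WY-14643 library, replicate 9, thus lay above the highest vehicle library, replicate 5. The means were 126 ± 10.6 FPKM in WY-14643 and 75.7 ± 11.8 FPKM in vehicle libraries (SD, n = 5 each), a ratio of means of 1.67 and a difference of 0.74 on the log2 scale. With 1319 to 4007 reads per library the counting error of Fbp2 was small against these differences. By its mean over all 10 libraries Fbp2 ranked 345 among the protein-coding genes.

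The gap held in each numbered pair but not to the same extent. The ratio of Fbp2 in FPKM, WY-14643 over vehicle, was 1.76 in pair 1, 1.66 in pair 2, 1.73 in pair 3, 1.98 in pair 4 and 1.34 in pair 5. Pair 4 joined the lowest library of each group, and pair 5 held the highest vehicle library. Of the sum of squares of log2 Fbp2 over the 10 libraries, 82.7% lay between the groups, 12.3% between the numbered pairs and 5.03% in neither. Of the 6 genes, 1 (Fbp2) had groups that did not overlap. Among all 13607 genes with a mean of at least 0.5 FPKM, 0.243% did not overlap with WY-14643 higher and 0.11% with WY-14643 lower. Likewise 5.63% of those genes were higher and 6.09% lower in WY-14643 in all 5 numbered pairs. Since Fbp2 was chosen for this contrast, nothing is read from its place among them.

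**Figure D1:**
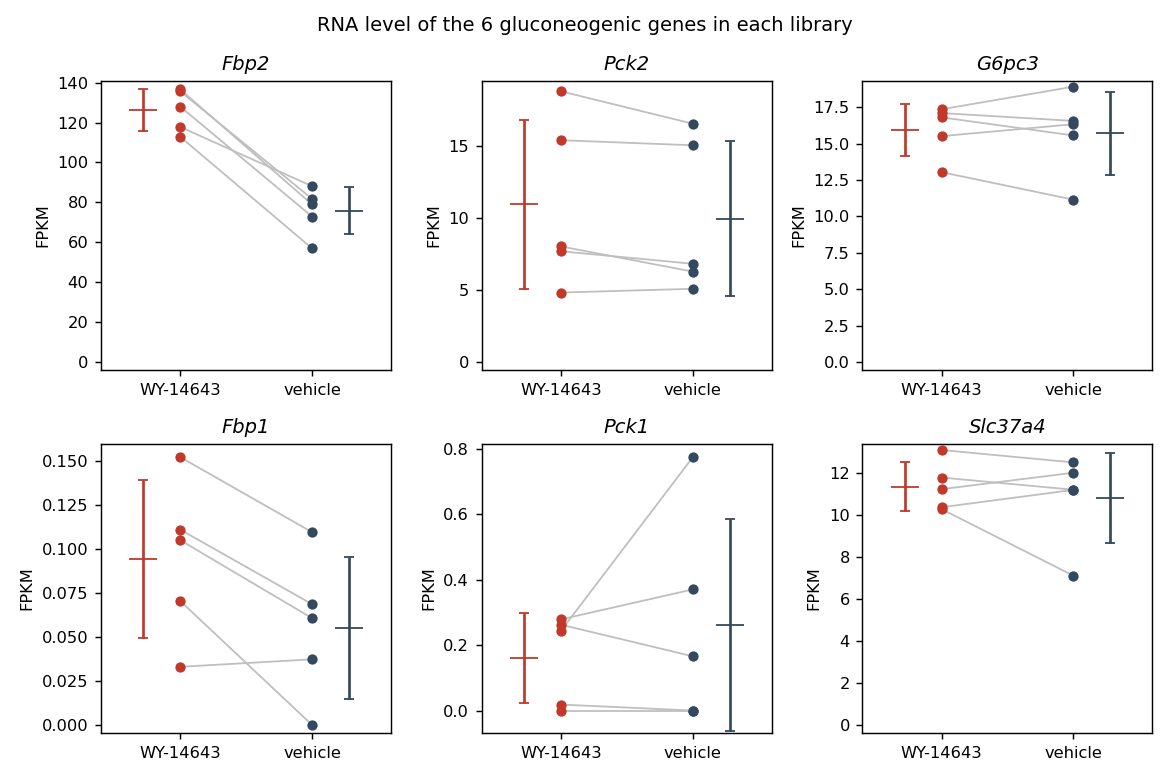
RNA level in FPKM (vertical axes, 1 scale per gene) of the 6 gluconeogenic genes in 5 WY-14643 and 5 vehicle libraries; points are libraries, grey lines join numbered pairs, and bars beside the points give the mean and SD. Fbp2 is the gene whose groups do not overlap, Pck2 is highest in pairs 3 and 4 of both groups, and Fbp1 and Pck1 stay below 1 FPKM.

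Fbp1, the isoenzyme of liver and kidney, was close to the limit of detection. It was at 0.111, 0.105, 0.0705, 0.0330 and 0.152 FPKM in WY-14643 replicates 6 to 10, and at 0.0687, 0.0607, 0, 0.0373 and 0.110 FPKM in vehicle replicates 1 to 5. These values rest on 0 to 6 reads per library and 25 reads in all, against 28497 for Fbp2, and 3 reads of Fbp1 correspond to 0.0607 to 0.112 FPKM depending on the library. The groups overlapped, and no difference of Fbp1 could be seen at this depth. Fbp2 made up at least 99.87% of the summed FPKM of both isoenzymes in every library.

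The genes lie side by side on chromosome 13 of build mm39, both on the minus strand, Fbp2 (ENSMUSG00000021456) from 62984691 to 63006236 and Fbp1 (ENSMUSG00000069805) from 63012567 to 63036096, with 6330 bases between them. Their coding sequences in the GENCODE M21 transcripts are 1017 bases long for Fbp2 and 1014 for Fbp1, with 70.2% identity over the aligned bases. The longest stretch they share without a mismatch is 23 bases, shown here because it bears on how far reads of the pair can be told apart; it starts at base 436 of both coding sequences.
shared by Fbp2 and Fbp1: gatgagccttctgagaaggatgc

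Promoter sequences of all 6 genes were found in RefSeq for build GRCm38.p6, each covering 250 bases before and 50 after a gene start, and those of the expressed and the nearly silent isoenzyme are printed because the pair differs so widely in level. The Fbp2 window is chr13:62858351-62858650 and the Fbp1 window chr13:62888233-62888532, both on the minus strand and written 5′ to 3′ in the direction of the gene. Capitals mark matches, on either strand, to 1 of the motifs searched; Fbp1 had none.
Fbp2 promoter: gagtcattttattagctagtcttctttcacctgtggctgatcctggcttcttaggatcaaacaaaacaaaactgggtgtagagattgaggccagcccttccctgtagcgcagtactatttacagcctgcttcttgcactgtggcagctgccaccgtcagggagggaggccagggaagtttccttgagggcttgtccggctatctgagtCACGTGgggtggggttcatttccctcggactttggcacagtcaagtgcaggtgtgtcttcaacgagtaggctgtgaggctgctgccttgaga
Fbp1 promoter: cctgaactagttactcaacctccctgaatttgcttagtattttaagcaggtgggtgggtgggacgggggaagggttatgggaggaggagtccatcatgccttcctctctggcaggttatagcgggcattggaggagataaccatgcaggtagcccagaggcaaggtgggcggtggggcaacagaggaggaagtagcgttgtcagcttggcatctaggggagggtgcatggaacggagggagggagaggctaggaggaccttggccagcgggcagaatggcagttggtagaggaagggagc

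The motifs were the nuclear receptor half-site AGGTCA, its direct repeat with 1 base between the copies (DR1, the element PPARα binds with its partner RXR), the same repeat with the fourth base of each copy left free, the E-box CACGTG, the cyclic AMP response element TNACGTCA, the ATF4 composite element TGATGNAA and the TATA box TATAAA, each searched on both strands. The half-site is contained in the strict DR1, which in turn matches the relaxed form. Of the 8 promoter windows of the 6 genes, 0 held either form of DR1, which 0.0396% (strict) and 0.381% (relaxed) of all 32851 RefSeq windows held. The E-box at position -42 of Fbp2 was found in 7.15% of all windows, and G6pc3 held 2 of them, at -99 and -79. A match is a run of letters and no binding site, and the absence of DR1 from these windows says nothing about binding elsewhere.

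Genes near the pair were looked at because they share its stretch of chromosome. Within 200 kb of Fbp2 and Fbp1 the table holds 15 other genes, 5 of which reached a mean of 0.5 FPKM and were tested with limma, a linear model fitted to all 13607 genes. None of the 5 was called (0 with limma, with limma on numbered pairs, with library weights and with voom, and 0 at an unadjusted p under 0.05 in limma with or without pairs). Over all 13607 genes the same 4 fits called 0, 43, 21 and 0. An unadjusted p under 0.05 in limma was found for 1.51% of all genes without pairs and 10.6% with pairs. Counts of 0 among 5 genes thus do not set this stretch of chromosome apart. Aopep, an aminopeptidase gene on the plus strand from 63112707 to 63473910, was at 6.92 ± 1.93 FPKM in WY-14643 and 6.61 ± 1.85 FPKM in vehicle libraries (SD, n = 5 each). The others, Gm36298, Gm7045, Platr25 and Gm5141, averaged between 0.698 and 1.80 FPKM in WY-14643 and between 0.703 and 1.64 FPKM in vehicle libraries. No gene of the table overlapped Fbp2 or Fbp1.

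Phosphoenolpyruvate carboxykinase was likewise represented by 1 isoenzyme, the mitochondrial one, but with a different pattern. Pck2 was at 8.01, 7.68, 15.4, 18.8 and 4.82 FPKM in WY-14643 replicates 6 to 10, and at 6.27, 6.81, 15.0, 16.5 and 5.08 FPKM in vehicle replicates 1 to 5. In both groups the libraries of pairs 3 and 4 were high and that of pair 5 the lowest, and the groups overlapped almost fully. Pck2 differed 3.89-fold between the highest and lowest WY-14643 library and 3.25-fold between the highest and lowest vehicle library, whereas its group means of 10.9 ± 5.86 FPKM in WY-14643 and 9.94 ± 5.39 FPKM in vehicle libraries (SD, n = 5 each) gave a ratio of 1.099. Of the sum of squares of log2 Pck2, 98.1% lay between the numbered pairs and 0.891% between the groups.

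Pck1 stayed below 1 FPKM in all 10 libraries. It was at 0.0184, 0.243, 0.262, 0.279 and 0 FPKM in WY-14643 replicates 6 to 10, and at 0, 0.773, 0.166, 0.370 and 0 FPKM in vehicle replicates 1 to 5. The 77 reads of vehicle replicate 2 were the most in any library, and 3 libraries had 0 reads, which at 3 reads allows 0.0378 to 0.0511 FPKM in those libraries. Libraries of pairs 2, 3 and 4 had Pck1 reads in both groups, and those of pairs 1 and 5 had 1 or 0. Pck2 made up 89.8% to 100% of the summed FPKM of both isoenzymes.

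Pck2 (ENSMUSG00000040618) lies on chromosome 14 from 55777723 to 55788699 and Pck1 (ENSMUSG00000027513) on chromosome 2 from 172994841 to 173001066 of mm39, both on the plus strand. Their coding sequences are 70.3% identical and share no stretch longer than 17 bases without a mismatch. A lncRNA gene on the other strand, Gm10876, overlaps Pck2 and was listed at 0 FPKM in all 10 libraries; whether the counting used strand is not stated. The promoter windows, chr14:55540016-55540315 for Pck2 and chr2:173152823-173153122 for Pck1 in GRCm38.p6 and both on the plus strand, are shown because each held 1 match, at the letters in capitals.
Pck2 promoter: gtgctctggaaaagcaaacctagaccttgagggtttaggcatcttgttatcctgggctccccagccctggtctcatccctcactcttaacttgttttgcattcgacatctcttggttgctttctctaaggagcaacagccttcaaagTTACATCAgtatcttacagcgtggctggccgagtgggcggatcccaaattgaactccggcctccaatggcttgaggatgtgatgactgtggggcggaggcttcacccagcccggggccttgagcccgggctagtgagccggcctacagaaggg
Pck1 promoter: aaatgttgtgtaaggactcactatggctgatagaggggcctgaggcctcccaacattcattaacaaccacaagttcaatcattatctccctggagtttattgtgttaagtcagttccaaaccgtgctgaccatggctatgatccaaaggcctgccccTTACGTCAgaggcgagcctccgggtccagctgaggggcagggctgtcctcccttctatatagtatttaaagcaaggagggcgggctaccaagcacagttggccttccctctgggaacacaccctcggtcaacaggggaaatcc
The Pck2 match, at position -103, is the ATF4 composite element read on the other strand, held by 3.97% of all windows. ATF4 is the transcription factor of the amino acid and stress response, and PCK2 is known as one of its targets in human cells. The Pck1 match, at -93, is the cyclic AMP response element, held by 2.93% of all windows.

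The genes whose levels ran closest to Pck2 over the 10 libraries were, by Pearson r on log2(FPKM + 1), Gpt2 (0.982), Aldh18a1 (0.966), Desi2 (0.964), Rack1 (0.964) and Chac1 (0.960), out of 7338 protein-coding genes with a mean of at least 5 FPKM. This list was drawn up after the values of Pck2 were seen. The libraries of a numbered pair resemble each other across genes, so the 10 points are not independent and r is a measure of likeness only. Gpt2, the mitochondrial alanine transaminase that turns alanine into pyruvate, was at 3.98, 4.13, 7.73, 10.8 and 2.72 FPKM in WY-14643 replicates 6 to 10, and at 3.18, 3.20, 6.91, 10.6 and 2.58 FPKM in vehicle replicates 1 to 5. Trib3, a pseudokinase gene induced by ATF4, was not among the closest genes named above and was picked after its values were seen. It had an r with Pck2 of 0.939 and was at 11.2, 5.24, 17.7, 59.9 and 2.09 FPKM in WY-14643 replicates 6 to 10, and at 5.11, 3.11, 19.9, 71.3 and 0.549 FPKM in vehicle replicates 1 to 5. As for Pck2, both were highest in pair 4 and lowest in pair 5 of either group. Other genes set pair 4 apart as well: Mki67, a marker of dividing cells, was lowest there, at 12.97 FPKM in WY-14643 replicate 9 and 9.12 FPKM in vehicle replicate 4, and Krt20, a marker of mature colonocytes, was highest, at 169 FPKM in WY-14643 replicate 9 and 129 FPKM in vehicle replicate 4. In these bulk libraries a change in the share of a cell type and a change in RNA per cell cannot be told apart. The parts of cell composition and of ATF4 in the Pck2 pattern were not tested.

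**Figure D2:**
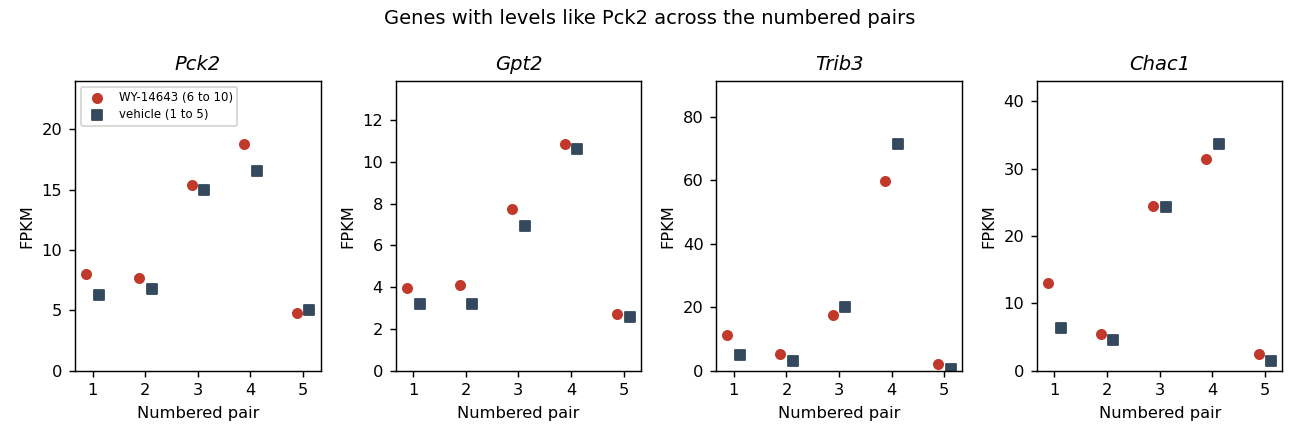
FPKM (vertical axes, 1 scale per gene) of Pck2, Gpt2, Trib3 and Chac1 in the 5 numbered pairs (horizontal axes), with WY-14643 libraries as circles and vehicle libraries as squares. In each of the 4 genes both libraries of pair 4 are the highest of their group and both of pair 5 the lowest.

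Fbp2 did not follow the Pck2 pattern. Over the 10 libraries the r between Fbp2 and Pck2 was -0.10, and after subtracting each group's mean it was -0.44. With group means subtracted, the r of Fbp2 was -0.57 with Gpt2, -0.69 with Trib3, -0.41 with Krt20 and 0.62 with Mki67. By the rule set for naming genes like Fbp2, those with the highest r over the 10 libraries were Hsdl2 (0.969), Hadhb (0.953), Akr1b8 (0.941), Cpt1a (0.929) and Unc50 (0.926). Hadhb, the β subunit of the mitochondrial trifunctional protein, was at 15.2 ± 2.70 FPKM in WY-14643 and 9.52 ± 1.81 FPKM in vehicle libraries, and Akr1b8, an aldo-keto reductase, at 174 ± 22.4 FPKM in WY-14643 and 83.1 ± 16.8 FPKM in vehicle libraries (SD, n = 5 each). Such an r takes in the difference between the groups, for which Fbp2 was chosen. With group means subtracted, so that the difference between the groups plays no part, the closest genes were Lpcat3 (0.943), Skap2 (0.926), Hsd17b4 (0.921), Ninj1 (0.917) and Taldo1 (0.908), which were other genes than the first 5. Lpcat3 encodes a lysophospholipid acyltransferase, Hsd17b4 a peroxisomal β-oxidation enzyme and Taldo1 the transaldolase of the pentose phosphate pathway.

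G6pc3 and Slc37a4 act together at the last step, the release of glucose in the endoplasmic reticulum, and both were expressed in all 10 libraries. G6pc3 was at 13.04, 17.1, 16.8, 17.4 and 15.5 FPKM in WY-14643 replicates 6 to 10, and at 11.2, 16.6, 15.6, 18.9 and 16.3 FPKM in vehicle replicates 1 to 5. Slc37a4 was at 10.3, 11.8, 13.1, 11.2 and 10.4 FPKM in WY-14643 replicates 6 to 10, and at 7.12, 11.2, 12.5, 12.03 and 11.2 FPKM in vehicle replicates 1 to 5. For both genes the ranges of the groups overlapped, the library of pair 1 was the lowest of its group, and the means differed by less than the spread between libraries. The means of G6pc3 were 15.97 ± 1.78 FPKM in WY-14643 and 15.7 ± 2.84 FPKM in vehicle libraries, and those of Slc37a4 were 11.4 ± 1.16 FPKM in WY-14643 and 10.8 ± 2.15 FPKM in vehicle libraries (SD, n = 5 each). In FPKM G6pc3 exceeded Slc37a4 in all 10 libraries, and over these libraries their r was 0.847. Pair 1, which holds the low vehicle replicate 1, had the largest ratio, 1.17 for G6pc3 and 1.45 for Slc37a4, while the ratio lay between 0.918 and 1.08 in the other pairs of both genes.

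G6pc3 (ENSMUSG00000034793) lies on chromosome 11 from 102080446 to 102084907 and Slc37a4 (ENSMUSG00000032114) on chromosome 9 from 44308149 to 44314265 of mm39, both on the plus strand. The microRNA gene Mir7085 lies within Slc37a4 on the same strand and averaged 0 FPKM in WY-14643 and 0.697 FPKM in vehicle libraries, where it was above 0 in replicates 2 and 4. It spans only 44311720 to 44311785, so that few reads make up such a level, and no difference is read from it. Of the 3 RefSeq promoter windows of Slc37a4, 1 held the half-site AGGTCA, found in 16.3% of all windows, and another held the TATA box, found in 13.6%.

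**Figure D3:**
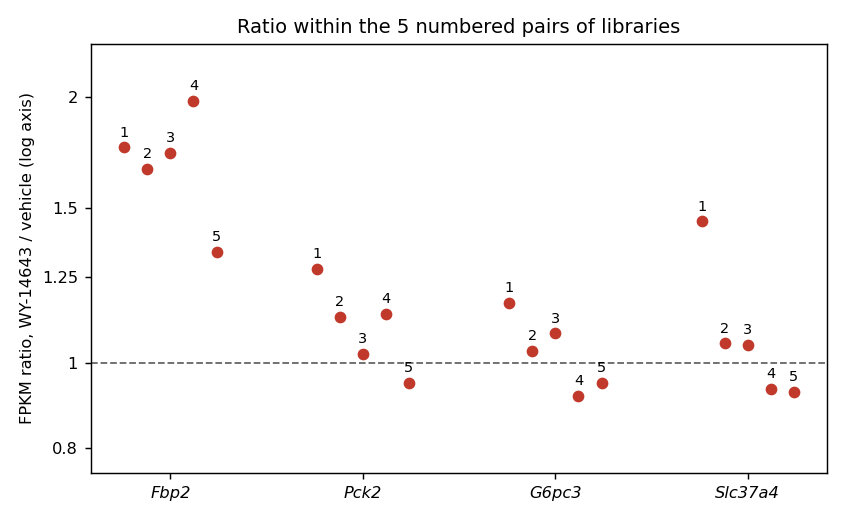
Ratio of FPKM, WY-14643 over vehicle, in each of the 5 numbered pairs (points, labelled by pair) for the 4 genes with a mean of at least 0.5 FPKM, on a log axis with a dashed line at 1. All 5 ratios of Fbp2 lie between 1.34 and 1.98, while those of Pck2, G6pc3 and Slc37a4 lie on both sides of 1.

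Ordered by mean level over the 10 libraries, Fbp2 at 101 FPKM stood above the rest, followed by G6pc3 at 15.8, Slc37a4 at 11.1 and Pck2 at 10.4 FPKM, whose ranges over libraries overlap, and then by Pck1 at 0.211 and Fbp1 at 0.0748 FPKM, whose ranges overlap too. Of the 6 genes, 4 passed the filter of a mean of 0.5 FPKM and 2, Pck1 and Fbp1, did not. FPKM is per gene length, and the deposited length is 7806 bases for Pck2, 2226 for G6pc3 and 2857 for Slc37a4. In reads Pck2 had the most of them, 15217 against 6883 for G6pc3 and 6180 for Slc37a4. Their order in FPKM thus rests on these lengths and is not read further. G6pc, the glucose-6-phosphatase of liver and kidney, and G6pc2, its relative in pancreatic islets, had 0 reads in all 10 libraries, which at 3 reads allows at most 0.0788 FPKM for G6pc and 0.0964 FPKM for G6pc2 in any library. Pcx, pyruvate carboxylase, was at 4.27, 9.60, 7.62, 9.62 and 13.2 FPKM in WY-14643 replicates 6 to 10, and at 5.76, 13.03, 8.26, 10.4 and 12.6 FPKM in vehicle replicates 1 to 5. It was not called (limma, adjusted p = 1.0; adjusted p = 0.462 on numbered pairs), and it was lowest in pair 1 of either group.

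The other genes of glucose and pyruvate metabolism were tested to see how far the rest of the pathway differed. Of 88 genes in 8 lists around the 6, 68 reached a mean of 0.5 FPKM and 0 were called in either direction by limma on log2(FPKM + 1), with Benjamini-Hochberg adjustment over all 13607 genes and a threshold of 0.05. That fit called 0% of all genes, so the count of 0 does not set the pathway apart. On numbered pairs limma called 0.287% of all genes higher and 0.0294% lower, and again 0 of the 68. With library weights and with voom on the recovered reads the counts over the 68 were 0 as well. At an unadjusted p under 0.05 there were 0 of the 68 without pairs, against 1.51% of all genes, and 9 with pairs, 5 higher and 4 lower, or 13.2% against 10.6% of all genes. The median difference over the 68 was 0.03, against -0.01 over all genes tested, and single genes lay between -0.29 and 0.44. In 5 of the 68 WY-14643 was higher in all 5 numbered pairs and in 4 lower, against 5.63% and 6.09% of all genes. In 0 of the 68 did the groups fail to overlap, against 0.243% (WY-14643 higher) and 0.11% (lower) of all genes.

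**Figure D4:**
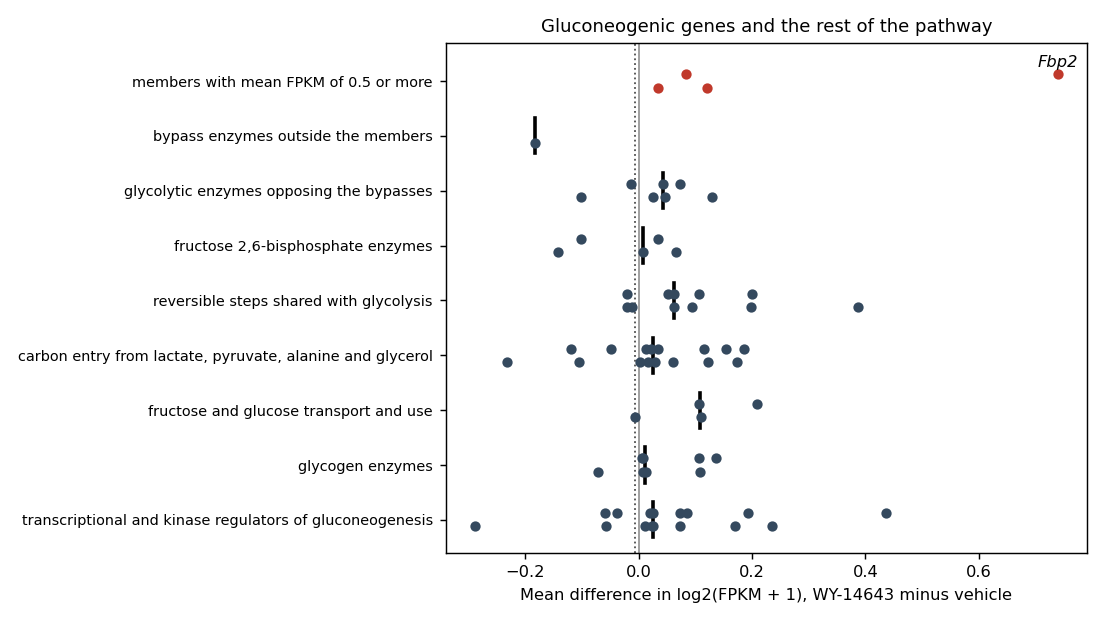
Difference in mean log2(FPKM + 1), WY-14643 minus vehicle (horizontal axis), of the 4 gluconeogenic genes that passed the filter (top line) and of 68 other pathway genes in 8 lists (points), with a thick bar at each list's median, a grey line at 0 and a dotted line at the median of all genes tested. Fbp2 lies at 0.74, and the genes of the lists lie between -0.29 and 0.44.

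Enzymes that oppose the bypasses and those of fructose 2,6-bisphosphate showed no call, where limma without pairs called 0% of all genes. The kinases that oppose the bypasses (hexokinases, phosphofructokinases and pyruvate kinases, 7 of 10 tested) had a median difference of 0.04, with Pklr, the liver-type pyruvate kinase, at 27.9 ± 2.56 FPKM in WY-14643 and 25.7 ± 4.51 FPKM in vehicle libraries. Pfkm, the muscle-type phosphofructokinase, was at 11.5 ± 4.06 FPKM in WY-14643 and 11.2 ± 4.91 FPKM in vehicle libraries. Hk2 was at 31.9 ± 9.55 FPKM in WY-14643 and 35.7 ± 15.0 FPKM in vehicle libraries (SD, n = 5 each; limma, adjusted p = 1.0 for all 3). The enzymes that make and remove fructose 2,6-bisphosphate, the inhibitor of fructose-1,6-bisphosphatase, had a median of 0.01 over 5 tested genes. Among them Pfkfb2 was at 5.87, 6.13, 5.30, 5.29 and 6.34 FPKM in WY-14643 replicates 6 to 10, and at 6.33, 6.89, 5.37, 6.32 and 7.66 FPKM in vehicle replicates 1 to 5. It was lower in 5 of 5 numbered pairs, by 0.14 in the mean on the log2 scale, and did not pass (limma, adjusted p = 1.0; 0.383 on numbered pairs). Pfkfb3 averaged 12.5 ± 4.71 FPKM in WY-14643 and 14.6 ± 8.42 FPKM in vehicle libraries, and Pfkfb4 averaged 1.15 ± 0.258 FPKM in WY-14643 and 1.08 ± 0.429 FPKM in vehicle libraries (SD, n = 5 each).

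The reversible steps shared with glycolysis had a median of 0.06 over 11 tested genes. Aldoa, the aldolase that splits or forms fructose 1,6-bisphosphate, was at 515 ± 132 FPKM in WY-14643 and 496 ± 204 FPKM in vehicle libraries. Pgam1 was at 227 ± 23.2 FPKM in WY-14643 and 216 ± 48.1 FPKM in vehicle libraries, and Eno3 was at 5.63 ± 2.48 FPKM in WY-14643 and 4.91 ± 2.74 FPKM in vehicle libraries (SD, n = 5 each). Gapdh, with the largest difference of the list at 0.39, spread from 7.94 to 64.0 FPKM within WY-14643 and from 8.82 to 43.8 FPKM within vehicle libraries. It has many near-identical processed pseudogenes, so its counts are uncertain.

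Genes that bring carbon in from lactate, pyruvate, alanine and glycerol had a median of 0.03 over 16 tested genes. Of these, 4 had an unadjusted p under 0.05 in limma on numbered pairs, as had 10.6% of all genes. Gk, glycerol kinase, was at 4.22, 1.52, 2.75, 2.36 and 1.69 FPKM in WY-14643 replicates 6 to 10, and at 5.26, 2.27, 3.20, 2.44 and 2.36 FPKM in vehicle replicates 1 to 5. It was lower in 5 of 5 numbered pairs, as were 6.09% of all genes. It had the smallest adjusted p of the 68 genes with pairs, 0.2804, which did not pass (limma; 1.0 without pairs). Gpd1l, a glycerol-3-phosphate dehydrogenase-like enzyme, was at 18.8 ± 1.39 FPKM in WY-14643 and 16.5 ± 1.91 FPKM in vehicle libraries and was higher in 5 of 5 pairs (limma, adjusted p = 1.0; 0.335 on numbered pairs). Mpc2, a subunit of the mitochondrial pyruvate carrier, was at 3.06 ± 0.473 FPKM in WY-14643 and 2.72 ± 0.317 FPKM in vehicle libraries. Of the lactate dehydrogenase genes, Ldha was at 554 ± 59.7 FPKM in WY-14643 and 560 ± 145 FPKM in vehicle libraries, and Ldhb at 0.0762 ± 0.108 FPKM in WY-14643 and 0.0791 ± 0.0801 FPKM in vehicle libraries (SD, n = 5 each).

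No gene of sugar transport, fructose use or glycogen was called. The 4 tested genes of transport and fructose use had a median of 0.11, with Khk, ketohexokinase, at 4.69 ± 2.14 FPKM in WY-14643 and 4.39 ± 2.34 FPKM in vehicle libraries. Tkfc, which phosphorylates glyceraldehyde from fructose, was at 5.62 ± 0.480 FPKM in WY-14643 and 5.20 ± 0.976 FPKM in vehicle libraries, and Slc5a1, the sodium-glucose cotransporter, at 1.08 ± 1.05 FPKM in WY-14643 and 0.702 ± 0.584 FPKM in vehicle libraries. The 8 tested glycogen genes had a median of 0.01. Pgm1 was at 42.1 ± 12.5 FPKM in WY-14643 and 39.1 ± 15.3 FPKM in vehicle libraries, Ugp2 at 52.1 ± 8.65 FPKM in WY-14643 and 48.5 ± 9.47 FPKM in vehicle libraries, and Pygb, the brain-type glycogen phosphorylase, at 29.9 ± 5.16 FPKM in WY-14643 and 27.9 ± 5.98 FPKM in vehicle libraries (SD, n = 5 each).

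Regulators of gluconeogenesis had a median of 0.03 over 16 tested genes of 21. Hnf4a, a nuclear receptor of liver and gut epithelium, was at 118 ± 25.0 FPKM in WY-14643 and 105 ± 33.5 FPKM in vehicle libraries (limma, adjusted p = 1.0; 0.442 on numbered pairs). Irs1, an insulin receptor substrate, was at 2.27, 1.23, 1.69, 2.11 and 1.24 FPKM in WY-14643 replicates 6 to 10, and at 2.81, 2.32, 1.74, 2.95 and 1.73 FPKM in vehicle replicates 1 to 5, lower in 5 of 5 pairs (limma, adjusted p = 1.0; 0.298 on numbered pairs). Ppargc1b, a coactivator of mitochondrial genes, was at 2.23 ± 0.7502 FPKM in WY-14643 and 1.84 ± 1.08 FPKM in vehicle libraries, and Ppargc1a, the coactivator that drives gluconeogenesis in liver, at 1.603 ± 1.07 FPKM in WY-14643 and 1.78 ± 1.52 FPKM in vehicle libraries (SD, n = 5 each). Pdk4, whose kinase shuts pyruvate dehydrogenase, lay below the filter and is named after its values were seen: it was at 0.359, 0.424, 0.307, 0.0640 and 0.0246 FPKM in WY-14643 replicates 6 to 10, and at 0 FPKM in 4 vehicle libraries and 0.0398 FPKM in vehicle replicate 5.

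Cell type markers were read because Fbp1, Pck1 and G6pc serve the route in liver and kidney and Fbp2 is best known from skeletal muscle. Counts of markers with a higher or lower mean are counts of means in FPKM, not on the log2 scale. Slc9a3 (-0.05), Zg16 (-0.01) and Krt8 (-0.02), higher by mean FPKM, were lower on the log2 scale. Of 12 muscle markers 9 stayed under 0.1 FPKM in every library, with Actc1, Myh2, Myh4 and Myod1 at 0, and the summed level of all 12 was 5.08 to 9.17 FPKM in WY-14643 and 4.73 to 17.8 FPKM in vehicle libraries. Mb, Acta1 and Pgam2 made up most of it. Of 10 hepatocyte markers 0 reached the filter, Alb, Serpina1a and Fgb were at 0 in all libraries, and the sum was 0.294 to 1.05 FPKM in WY-14643 and 0.211 to 1.23 FPKM in vehicle libraries. Of 10 markers of absorptive colonocytes 8 had a higher and 1 a lower mean in WY-14643, with Car4 at 0 throughout, and their sum, mostly Car1 and Car2, was 694 to 2264 FPKM in WY-14643 and 396 to 1530 FPKM in vehicle libraries and higher in all 5 numbered pairs. Cyp2c55 of that list was at 81.9 ± 73.1 FPKM in WY-14643 and 39.5 ± 47.8 FPKM in vehicle libraries (SD, n = 5 each). It was higher in 5 of 5 pairs, as were 5.63% of all genes, and did not pass (limma, adjusted p = 0.093 on numbered pairs). Of 10 small intestinal enterocyte markers 6 had a higher and 4 a lower mean, and their sum was 9.90 to 98.7 FPKM in WY-14643 and 7.74 to 45.9 FPKM in vehicle libraries. Among them Fabp1, a fatty acid binding protein gene, was at 1.253, 1.40, 0.759, 14.2 and 0 FPKM in WY-14643 replicates 6 to 10, against at most 0.0623 FPKM in any vehicle library. Fabp1 did not pass (limma, adjusted p = 0.420 on numbered pairs). Of 10 stem and transit-amplifying cell markers 2 had a higher and 8 a lower mean FPKM. Of those 8, Mki67 (0.07), Top2a (0.07), Ccnb1 (0.06) and Cdk1 (0.05) were higher on the log2 scale, where Sox9 (-0.01) was lower. The sum of the list was 120 to 308 FPKM in WY-14643 and 114 to 331 FPKM in vehicle libraries. Lgr5, the intestinal stem cell receptor gene of that list, was at 3.79 ± 0.554 FPKM in WY-14643 and 4.79 ± 0.852 FPKM in vehicle libraries (SD, n = 5 each). It was lower in 5 of 5 pairs, as were 6.09% of all genes, and did not pass (limma, adjusted p = 0.240 on numbered pairs). Ascl2 of the same list went the other way, at 2.01 ± 0.892 FPKM in WY-14643 and 1.53 ± 0.747 FPKM in vehicle libraries (SD, n = 5 each). It was higher in 4 of 5 pairs and did not pass (limma, adjusted p = 0.515 on numbered pairs). Of 8 goblet cell markers 3 had a higher and 5 a lower mean, and their sum was 18.8 to 78.4 FPKM in WY-14643 and 35.6 to 75.2 FPKM in vehicle libraries. Muc2, the mucin gene of goblet cells, was at 4.60 ± 2.42 FPKM in WY-14643 and 6.28 ± 3.33 FPKM in vehicle libraries (SD, n = 5 each). It was lower in 5 of 5 pairs, as were 6.09% of all genes, and did not pass either (limma, adjusted p = 0.233 on numbered pairs). Of 12 colon epithelium markers 8 had a higher and 4 a lower mean. The sums were low in every library for 8 immune cell markers (3.16 to 6.72 FPKM in WY-14643, 3.19 to 5.88 FPKM in vehicle) and 10 smooth muscle and fibroblast markers (0.545 to 1.06 FPKM in WY-14643, 0.545 to 1.252 FPKM in vehicle). No marker in any of these lists was called (limma, with or without pairs). Over all genes limma called 0% without pairs, and 0.287% higher and 0.0294% lower with pairs. At an unadjusted p under 0.05 in limma with pairs there were 4 of 8 tested absorptive colonocyte, 3 of 12 colon epithelium and 2 of 4 enterocyte markers, all of them higher in WY-14643. There were 2 of 7 goblet cell and 1 of 9 stem and transit-amplifying cell markers, all of them lower in WY-14643, against 10.6% of all genes. With pairs ignored, the groups overlapped in the sums of all the lists, while the absorptive colonocyte sum was higher in all 5 numbered pairs. The part of cell composition in the Fbp2 difference was not tested.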

How the data were processed

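RNA of 10 mouse colon organoid libraries, selected by poly(A), was read from 1 table of 56748 genes. Its FPKM values were deposited by the authors. Tools named for it, per the submitters' processing notes, are HISAT2 (2.0.5) for reads and featureCounts (1.5.0-p3), with mm39 as the build. The annotation release was not given in the sources used here, nor was the strand setting. The other deposited column used was gene length in bases. FPKM times gene length, in units of the smallest such product of a library, was whole for 100% of values above 0 (tolerance 0.01) and taken as reads.

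Genes with a mean of at least 0.5 FPKM, 13607 in all, were fitted with limma 3.58.1 in R 4.3.3 on log2(FPKM + 1), a pseudocount of 1, with a mean-variance trend, robust priors and no covariate. The p-values were adjusted by Benjamini-Hochberg, and a second fit had the numbered pairs as a block. For the repeated symbol Aldoa, ENSMUSG00000030695 was used. Both fits were also run on simulated data with known changes, where a minimum recovery was required only of the fit with numbered pairs. With 5 libraries a group, their number limits the precision, and floors of 3 reads cover counting error only.

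The 6 genes and the lists were chosen with earlier results of these data known. Named were the 6 genes, up to 3 tested genes of each list with the smallest p, tested genes within 200 kb of Fbp2 and Fbp1, the 5 genes most like Fbp2 by each measure, Cpt1a and abundant markers. Gpt2, Trib3, Chac1 and the other genes like Pck2, Aldoa, Ldha, Ldhb, Ppargc1a, Pdk4, Fabp1, Lgr5, Ascl2, Muc2, Mki67, Krt20 and Cyp2c55 were added after their values were seen. So were the markers named because their sign differed between mean FPKM and the log2 scale. Alternatives were another pseudocount, other filters, FPKM rescaled to 1 sum, library weights, voom on the reads, and leaving out libraries or pairs. Figures were drawn with matplotlib 3.10.9.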

Additional observations from a re-analysis of the deposited data

Results flagged for a closer look

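Libraries that stood apart from the other 4 of their group, by Dixon's criterion for 5 values, were found in 4 of 96 groups of values over 48 genes named in the report; chance alone flags about 1 group in 20. Slc37a4 was at 7.12 FPKM in vehicle replicate 1, against 11.2 to 12.5 FPKM in the other vehicle libraries. Gm36298, a processed pseudogene near Fbp2, was at 2.79 FPKM in WY-14643 replicate 7, against 1.40 to 1.71 FPKM in the other WY-14643 libraries. Skap2 was at 4.25 FPKM in vehicle replicate 4, against 5.64 to 5.87 FPKM in the others. Taldo1 was at 99.7 FPKM in WY-14643 replicate 9, against 132 to 142 FPKM in the others. The last 2 were named for their likeness to Fbp2, which was also lowest in these 2 libraries of its groups.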

How the results depend on the processing

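Pathway and neighbouring genes called stayed at 0 in every setting run. Over all genes limma called 0, against 43 with the replicate block and 21 with library weights; the block is taken from the data, since the labels give the groups no shared numbers. Without 1 library the count was 0 to 2, and it was 1 without WY-14643 replicate 10, 1 without vehicle replicate 2 and 2 without vehicle replicate 5. With the replicate block and pair 1, 2, 3, 4 or 5 left out, which was added after seeing the data, it was 33, 3, 2, 13 and 33, and with the block and no filter 2.

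On the log2 scale the Fbp2 difference was 0.64 to 0.80 without 1 library. Those of Pck2 (-0.10 to 0.34), G6pc3 (-0.08 to 0.10), Slc37a4 (-0.05 to 0.14) and Pck1 (-0.17 to 0.04) took both signs. The Fbp1 difference of 0.05 was 0.33 with a pseudocount of 0.1 and 0.87 with voom, on 25 reads in all.

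Uncalled genes changed sign as well. With library weights Pfkfb4 was at -0.013, Khk at -0.025 and Platr25 at -0.030. Gm7045 was at 0.041 with a pseudocount of 0.1 and at 0.055 with voom. With the block and a pair left out, Pfkfb3 was at 0.14 (pair 2), Gapdh at -0.16 (pair 4), Gm36298 at -0.049 (pair 2), Gm7045 at 0.17 (pair 1) and Gm5141 at -0.075 (pair 2) and -0.064 (pair 3). Without 1 library the ranges were -0.35 to 0.025 for Pcx, -0.35 to 0.085 for Hk2, -0.11 to 0.24 for Pfkm, -0.025 to 0.15 for Pfkfb4, -0.37 to 0.15 for Pfkfb3, -0.026 to 0.45 for Eno3, -0.0011 to 0.40 for Slc5a1, -0.19 to 0.38 for Khk and -0.053 to 0.33 for Pgm1. They were -0.046 to 0.12 for Gm36298, -0.22 to 0.18 for Gm7045, -0.078 to 0.18 for Platr25, -0.082 to 0.17 for Gm5141 and -0.076 to 0.19 for Aopep. The cause was not tested.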
